A study of Homo sapiens with 6 samples.

Results

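Genes of the extracellular matrix and its receptors were followed in HEK293 cells making adeno-associated virus (AAV). The set was chosen by gene symbol from the deposited matrix and holds collagens (COL), laminin chains (LAMA, LAMB, LAMC), symbols that begin with ITGA or ITGB, and 12 further matrix genes: FN1, SPARC, THBS1, NID1, NID2, HSPG2, AGRN, FBN1, FBN2, TNC, LOX and LOXL2. Antisense symbols were left out. It has 88 members among 18164 genes listed: 38 collagens, 11 laminin chains, 22 integrin subunits, the 12 other matrix genes, 3 genes for proteins that bind integrins or take their name from doing so (ITGB1BP1, ITGB1BP2, ITGB3BP), and 2 divergent transcripts (COL25A1-DT, ITGB1-DT), which are RNAs read away from the neighbouring gene.

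HEK293 is a long-used line from human embryonic kidney with adenoviral E1 genes in its genome, and a commercial suspension line was used here. In the transfected group, 3 libraries came from cells that had been given a pair of plasmids with a polymer reagent and collected 18 h later. The untransfected group, also 3 libraries, received PBS in place of DNA and reagent and was collected at the same time. The effects of plasmids, reagent and vector production cannot be told apart in this design, and the labels do not say whether replicates were separate cultures, so p-values rest on a library-to-library spread that may be technical.

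The extracellular matrix is the protein meshwork around cells. Collagens form fibrils or sheets from chains wound in threes, laminins are cross-shaped trimers of an alpha, a beta and a gamma chain that organise basement membranes, and nidogens, perlecan and agrin tie these layers together. Integrins are paired alpha and beta receptors that bind matrix outside the cell and the actin skeleton inside it. In kidney, the basement membrane under tubules and glomeruli is built from laminins and type IV collagen. Cells grown in suspension have no dish to attach to.

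The labelled cell type was checked against markers. Of 12 genes that HEK293 is known to express, 11 had a mean of at least 1 TPM (an abundance corrected for transcript length and scaled to one total in every library). Their summed level was 967 to 976 TPM in transfected and 751 to 804 TPM in untransfected libraries. Of the 11 tested, 6 rose, beside 20% of all tested genes. LHX1 was at 0.480 and 0.390 TPM. Mitochondrially encoded transcripts took 28.4% to 31.6% of TPM in transfected and 31.3% to 37.6% in untransfected libraries, with the highest share in untransfected replicate 3. That library and transfected replicate 1 stood apart from the other 4 on the second principal component, which held 16.6% of the variance. A gene was tested if 3 or more libraries had 1 TPM of it or more, which 16145 genes met. As 18164 genes were listed, most reached that level, so the marker count at 1 TPM does not single out a cell type.

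Of the 88 members, 70 passed that filter, and transfection was followed by 14 higher and 14 lower calls among them (limma on log2(TPM + 1), adjusted p under 0.05 over all tested genes). Each is 20% of the tested members. Over all tested genes 20% were called higher, 10.2% lower and 30.2% in either direction, so the members' share of higher calls equalled the background and their share of lower calls was about 2 times it. The median log2 fold was -0.07 for the members and 0.05 for all tested genes. Changes were small: the median absolute log2 fold was 0.22 and the extremes were -0.67 and 1.13. On this scale 2 tested members, COL12A1 and ITGAM, were at least 2-fold higher and called, beside 1.23% of all genes. In the other direction 0 were at least 2-fold lower. COL12A1 and ITGAM passed the filter only through the transfected group, as did ITGA10 and COL25A1-DT, also called higher. In 15 tested members all 3 transfected values lay above all untransfected ones, beside 29.2% of all genes, and in 24 they lay below, beside 17.3%, so that 39 did not overlap, beside 46.5% in either direction. Among 48 members with a mean of at least 5 TPM, 7 rose (14.6%) and 9 fell (18.8%). The nearest background is a filter of 5 TPM in place of 1 TPM, which tests 49 members. It gave 22.3% higher and 11.6% lower calls over all genes.

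The split moved with the scaling of the libraries. Median-ratio scaling gave 13 higher and 23 lower members and quantile normalization 12 and 23. Rescaling after mitochondrial and the 20 most abundant genes were dropped gave 13 and 24. Over all genes the share called lower was then 17.8%, 17.9% and 19.3%, against 32.9%, 32.9% and 33.3% of the tested members. The share called higher was 18.6%, 18.1% and 16.4% of all genes, against 18.6%, 17.1% and 18.1% of the tested members. Leaving out 1 library gave 9 higher and 12 lower members without transfected replicate 1 (16.6% and 7.7% of all genes), 5 and 11 without transfected replicate 2 (11.5% and 6.07%), and 5 and 8 without transfected replicate 3 (11.8% and 6.87%). With untransfected replicate 1, 2 or 3 left out the counts were 14 and 11 (15.2% and 6.45% of all genes), 11 and 10 (17.4% and 6.78%), and 13 and 19 (18.4% and 12.6%). Leaving out both untransfected replicate 3 and transfected replicate 1 was an alternative added after the data were seen. It gave 14 higher and 16 lower members, beside 22.1% and 13.1% of all genes. GC content was highest in the members called lower, where the median for the longest transcript was 61.7%. It was 50.6% for members called higher and 50.0% for those not called. All tested members had a median of 52.1% and all tested genes 48.3%. Taking out each library's trend with GC content and length was also an alternative added after the data were seen. It gave 15 higher and 24 lower members, against 21.0% and 21.9% of all genes.

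**Figure D1:**
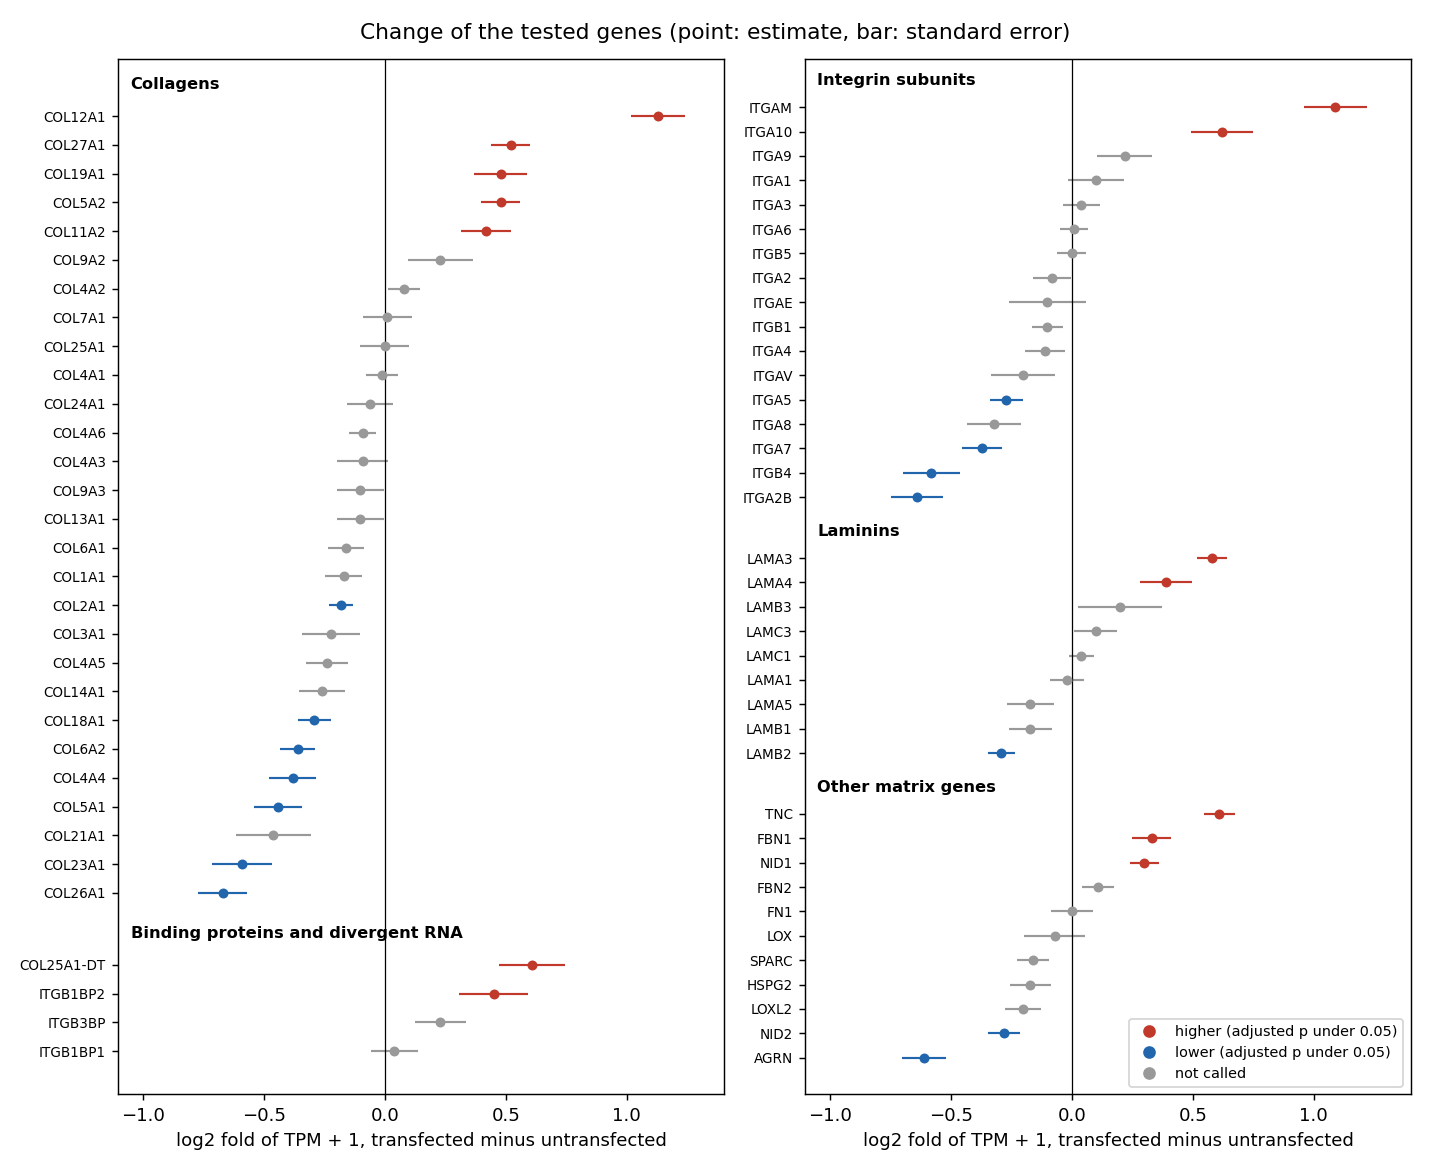
Log2 fold of TPM + 1 (x axis, transfected minus untransfected) for 69 tested members, by family; points are estimates from 6 libraries and bars are standard errors. Red and blue mark the 14 genes called higher and the 14 called lower, and COL12A1 and ITGAM lie farthest to the right.

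**Figure D2:**
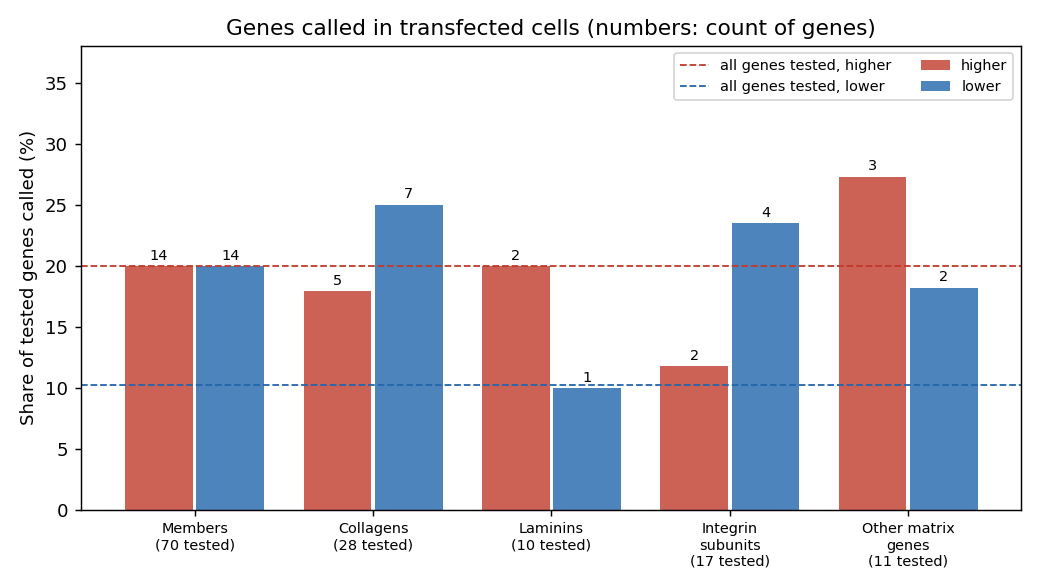
Share of tested genes called higher (red) or lower (blue) in each family, in percent, with the count over each bar and dashed lines for all tested genes (20% higher, 10.2% lower). Collagens and integrin subunits have more lower than higher calls, and laminins and the other matrix genes have more higher than lower calls.

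Collagens divided. Of 38 genes 28 were tested, and 5 rose and 7 fell, that is 17.9% and 25.0% of those tested, beside 20% and 10.2% of all genes. Summed over the 38 genes, collagen transcripts stood at 407.2, 405.4 and 409.3 TPM in transfected and 439.5, 459.1 and 439.4 TPM in untransfected libraries, with no overlap of the groups. The order was the same under median-ratio scaling and with mitochondrial and the most abundant genes dropped. The lower collagen count became 11 under each of the 3 other scalings, where 17.8% to 19.3% of all genes were called lower. It was 3 without transfected replicate 3 (6.87% of all genes). The higher count was 2 without transfected replicate 2 or 3 (11.5% and 11.8% of all genes).

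On the log2(TPM + 1) scale the largest fold of a tested member was that of COL12A1 (ENSG00000111799, GRCh38 chromosome 6, 75084326 to 75206051), which encodes a collagen that sits on the surface of fibrils. Its level was 3.21, 3.38 and 2.76 TPM in transfected replicates 1 to 3 and 0.93, 0.94 and 0.76 TPM in untransfected replicates 1 to 3. Every transfected value lay above every untransfected one, and the log2 fold was 1.13 with SE 0.112 (limma adjusted p = 0.000526). By the ratio of mean TPM, COL12A1 was 3.56-fold higher and the scarcer ITGAM and COL5A3 were 21.0-fold and 4.69-fold higher, so this order depends on the scale. COL12A1 entered the test only through the transfected group, since its untransfected values were under 1 TPM.

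COL27A1 (chromosome 9, 114155560 to 114312511), a fibrillar collagen of cartilage, was at 11.1, 11.3 and 10.3 TPM in transfected and 6.91, 7.40 and 7.62 TPM in untransfected libraries. The groups did not overlap, and the log2 fold was 0.52 with SE 0.079 (adjusted p = 0.00274). COL5A2 (chromosome 2, 189031896 to 189225312), a chain of the type V collagen that regulates fibril width, was at 7.03, 7.54 and 7.47 against 4.88, 4.88 and 5.19 TPM (log2 fold 0.48, adjusted p = 0.00396), again without overlap. Its partner chain COL5A1 went the other way, from 2.18, 2.22 and 2.43 TPM in untransfected to 1.42, 1.44 and 1.39 TPM in transfected libraries (log2 fold -0.44, adjusted p = 0.013). That call was lost without transfected replicate 3 (adjusted p = 0.0512) and without both libraries that stood apart (0.0503). The third type V chain, COL5A3, was under the filter at 0.44, 0.74 and 0.51 TPM in transfected and 0.10, 0.13 and 0.13 TPM in untransfected libraries. Without the filter its log2 fold was 0.48 (adjusted p = 0.00704). The called chains of this one collagen thus moved in different directions.

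COL19A1, a collagen found at basement membrane zones, rose from 1.96 ± 0.290 to 3.12 ± 0.162 TPM (mean ± SD, n = 3 libraries a group here and below; log2 fold 0.48, adjusted p = 0.0139). The exons of COL19A1 overlap those of LMBRD1 on the other strand, and the call was lost without transfected replicate 2 (adjusted p = 0.0559) or 3 (0.0556). COL11A2, a chain of the cartilage collagen type XI, rose from 1.37 ± 0.0929 to 2.16 ± 0.134 TPM (log2 fold 0.42, adjusted p = 0.0183). Leaving out transfected replicate 2 (adjusted p = 0.0750) or 3 (0.0539) or untransfected replicate 2 (0.0561) ended the call, as did the replicate block (0.0534).

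Among the collagens that fell, COL26A1 (chromosome 7, 101362820 to 101559024), which encodes a secreted collagen-like protein, had the largest fold on the log2(TPM + 1) scale. It was at 12.1, 13.9 and 12.2 TPM in untransfected and 7.24, 7.03 and 8.70 TPM in transfected libraries. No values overlapped, and the log2 fold was -0.67 with SE 0.1 (adjusted p = 0.00252). COL23A1 (chromosome 5, 178237618 to 178590555), a membrane-spanning collagen, was at 2.98, 3.30 and 3.19 against 1.45, 1.68 and 2.20 TPM (log2 fold -0.59, adjusted p = 0.00947). With a pseudocount of 0.1 the order turned, at -0.73 for COL26A1 and -0.81 for COL23A1.

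Type VI collagen, a beaded microfibril found in most connective tissue, has an alpha 1 and an alpha 2 chain among the chains it needs. COL6A2 (chromosome 21, 46098097 to 46132849) was at 21.5, 22.7 and 21.1 TPM in untransfected and 18.1, 16.1 and 16.1 TPM in transfected libraries, without overlap (log2 fold -0.36, adjusted p = 0.00867). COL6A1, which lies beside it on chromosome 21, had 45.2 ± 3.72 TPM without and 40.2 ± 1.71 TPM with transfection and was not called (log2 fold -0.16, adjusted p = 0.130). The difference between the 2 chains was not tested. COL6A3, COL6A5 and COL6A6 had means of at most 0.273 TPM in either group and were not tested.

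COL18A1, the basement membrane collagen from which endostatin is cut, fell from 15.2 ± 0.390 to 12.3 ± 0.578 TPM (log2 fold -0.29, adjusted p = 0.0167). Leaving out transfected replicate 2 (adjusted p = 0.0659) or 3 (0.0642) or untransfected replicate 1 (0.0663) ended the call, as did the replicate block (0.0527) and the correction for GC content and length (0.210), and its exons overlap SLC19A1 on the other strand. COL2A1, the main collagen of cartilage, was the most abundant collagen here and made up 70.3% of fibrillar collagen TPM in transfected and 74.9% in untransfected cells. It was at 106.6, 110.5 and 109.3 TPM in untransfected and 97.1, 93.2 and 97.6 TPM in transfected libraries, without overlap (log2 fold -0.18, adjusted p = 0.0303). Its call was lost in 7 of the 17 alternatives, with adjusted p of 0.0663 to 0.128, among them all leave-one-out fits except that without untransfected replicate 3. COL1A1, the chain of skin and bone collagen, was at 14.46, 14.39 and 15.47 TPM in untransfected and 13.87, 12.16 and 13.09 TPM in transfected libraries and was not called (adjusted p = 0.130).

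**Figure D3:**
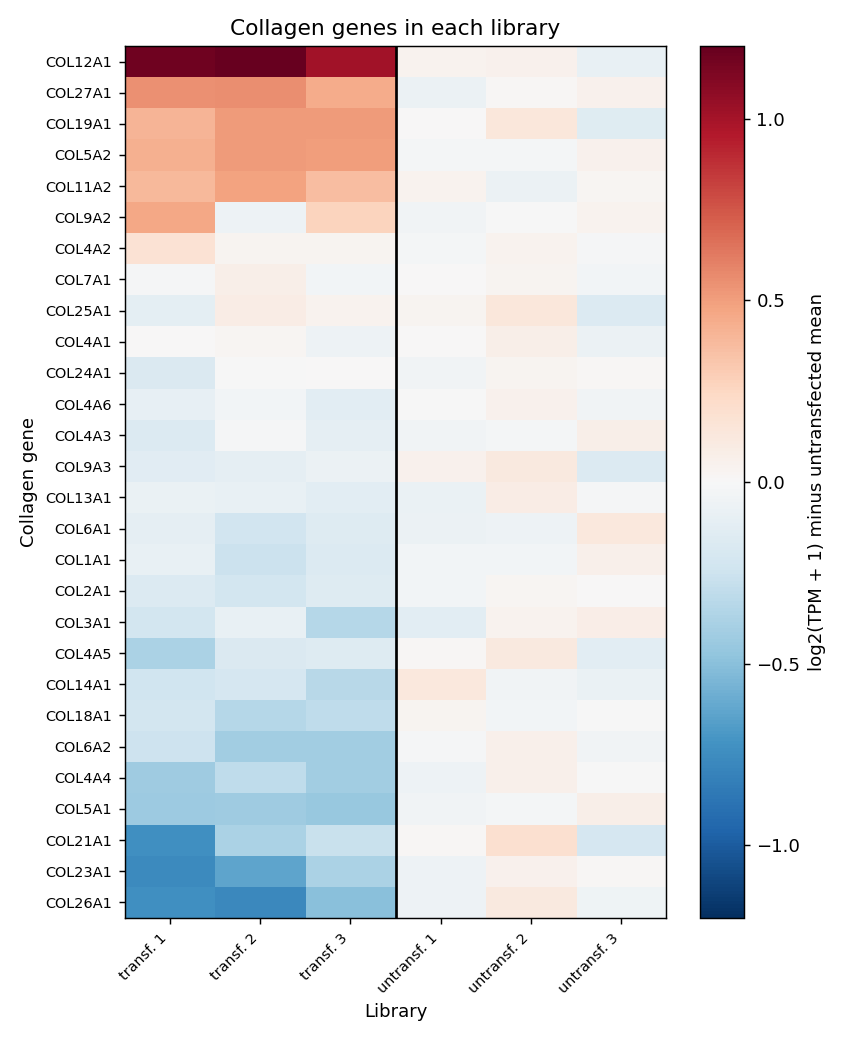
Each of 28 tested collagen genes (rows, from the highest to the lowest fold) in each of 6 libraries (columns), as log2(TPM + 1) minus the mean of the 3 untransfected libraries; red is higher and blue lower. The top 5 rows are red in all 3 transfected libraries, and COL9A2 in row 6 is high in transfected replicates 1 and 3 but not in 2.

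To set the start sites of genes called in each direction side by side, the RefSeq windows (GRCh38.p14) from 250 bases before to 50 after the start site were searched for motif letters on both strands. The letters of the AP-1 site, bound by Fos and Jun proteins, are TGANTCA. Those of the CRE, bound by CREB proteins, are TGACGTCA, and those of the EGR site are GCGNGGGCG. The GC box, bound by Sp proteins, reads GGGCGG and can share letters with an EGR site. The TATA box, where the general machinery assembles, was searched as TATAAA, and the CArG box, bound by serum response factor, was searched too. Windows matched 64 of the 88 members. A GC box was in 6 of 13 windows of members called higher (46.2%) and 7 of 10 of those called lower (70.0%). It was in 20 of 31 windows of members not called (64.5%) and in 44.6% of 27305 windows of all genes. For members called higher, called lower and not called, the AP-1 letters were in 1 of 13, 1 of 10 and 0 of 31, against 7.76% of all windows, and the EGR letters in 0 of 13, 3 of 10 and 5 of 31, against 9.28%. In the same order the CRE was in 0, 0 and 1 (1.98% of all windows), TATAAA in 0, 1 and 3 (12% of all windows) and the CArG box in 0, 0 and 1 (1.29% of all windows). Below are the windows of the collagens with the highest and the lowest log2 folds of TPM + 1 that had one, 5′ to 3′ on the gene's strand, with every motif letter in capitals: COL12A1 at chr6:75206004-75206303 (minus strand), COL27A1 at chr9:114155287-114155586 (plus) and COL26A1 at chr7:101362625-101362924 (plus).
COL12A1: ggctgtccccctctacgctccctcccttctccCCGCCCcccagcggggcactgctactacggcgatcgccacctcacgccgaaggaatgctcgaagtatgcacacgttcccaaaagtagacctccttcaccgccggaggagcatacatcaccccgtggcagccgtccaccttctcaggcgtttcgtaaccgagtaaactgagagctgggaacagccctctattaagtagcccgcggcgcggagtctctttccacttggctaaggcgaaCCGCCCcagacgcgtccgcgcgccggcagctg
COL27A1: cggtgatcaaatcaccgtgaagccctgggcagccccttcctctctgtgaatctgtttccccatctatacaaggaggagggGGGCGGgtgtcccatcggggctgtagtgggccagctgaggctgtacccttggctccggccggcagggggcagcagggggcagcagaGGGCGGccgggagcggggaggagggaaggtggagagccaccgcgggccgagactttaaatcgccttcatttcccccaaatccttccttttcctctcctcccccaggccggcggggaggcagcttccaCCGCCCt
COL26A1: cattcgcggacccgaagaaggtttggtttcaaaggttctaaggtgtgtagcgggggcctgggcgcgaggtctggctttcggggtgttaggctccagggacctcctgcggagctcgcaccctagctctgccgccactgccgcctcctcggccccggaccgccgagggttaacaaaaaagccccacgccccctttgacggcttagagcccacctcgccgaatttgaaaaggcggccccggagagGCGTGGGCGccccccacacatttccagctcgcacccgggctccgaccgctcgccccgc
The capitals in COL12A1 and COL27A1 are GC boxes, on either strand, and those in COL26A1 are 1 EGR site that begins 8 bases before the start site. A match is a description of letters, and start sites used in these cells may differ.

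Type IV collagen, the sheet-forming collagen of basement membranes, is encoded by 3 gene pairs that each face away from a common promoter region. COL4A1 and COL4A2 start 127 bases apart on chromosome 13, COL4A5 and COL4A6 380 bases apart on the X chromosome, and COL4A3 and COL4A4 419 bases apart on chromosome 2. The COL4A1 window at chr13:110307108-110307407 (minus strand) is shown because it holds both start sites, which are the 2 capitals, that of COL4A2 first.
COL4A1: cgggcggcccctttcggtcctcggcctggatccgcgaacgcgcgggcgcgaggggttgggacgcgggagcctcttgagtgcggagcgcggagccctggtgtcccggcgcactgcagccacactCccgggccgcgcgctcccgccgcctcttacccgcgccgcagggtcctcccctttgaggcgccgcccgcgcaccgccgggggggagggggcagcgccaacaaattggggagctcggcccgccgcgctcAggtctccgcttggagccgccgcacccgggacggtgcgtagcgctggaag
Neither gene of the first pair was called: COL4A1 was at 21.65, 21.95 and 20.56 TPM in transfected and 21.65, 22.56 and 20.37 TPM in untransfected libraries, and COL4A2 at 24.27, 22.01 and 21.98 against 21.08, 22.03 and 21.19 TPM. Their log2 folds were -0.01 and 0.08 with SE 0.067 each, and with GC and length trends taken out COL4A2 passed, at 0.18 (adjusted p = 0.0153). The levels of the 2 genes were thus near each other in all 6 libraries. COL4A5 and COL4A6 were the most abundant type IV genes, at 46.1 ± 3.97 and 53.8 ± 1.75 TPM with and 54.6 ± 4.63 and 57.2 ± 1.85 TPM without transfection. Neither passed on the deposited TPM (adjusted p = 0.0709 and 0.284). Both were called lower under the 3 other scalings (adjusted p of 0.00403 to 0.00482 for COL4A5 and 0.0251 to 0.0398 for COL4A6), and COL4A5 also without untransfected replicate 3 (0.0272). Of the remaining pair, COL4A4 fell from 3.23, 3.61 and 3.40 TPM to 2.29, 2.56 and 2.31 TPM (log2 fold -0.38, adjusted p = 0.0194), while COL4A3 had 1.82 ± 0.117 TPM without and 1.64 ± 0.141 TPM with transfection (adjusted p = 0.534). Leaving out transfected replicate 1 (adjusted p = 0.0569) or 3 (0.0723), untransfected replicate 2 (0.0625) or both libraries that stood apart (0.0612) ended the COL4A4 call. Whether the members of that pair differed in their change was not tested.

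COL25A1-DT, the divergent RNA whose start lies 377 bases from that of the neuronal membrane collagen gene COL25A1, rose while the coding gene was not called. It was at 1.08, 1.10 and 1.61 TPM in transfected and 0.50, 0.56 and 0.37 TPM in untransfected libraries, without overlap (log2 fold 0.61, adjusted p = 0.0124), and it was tested only through the transfected group. COL25A1 was at 11.79, 13.77 and 13.30 against 13.20, 14.32 and 11.38 TPM, with overlap (log2 fold 0.00 with SE 0.1). ITGB1-DT was under the filter at 1.19, 0.69 and 1.22 against 0.63, 0.40 and 0.30 TPM, and without the filter its log2 fold was 0.49 (adjusted p = 0.0310). Its exons overlap those of ITGB1 on the other strand, and since the strand setting of the counting is not given, reads of the 2 genes may not have been separated.

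Laminin chains were called in the alpha and the beta class, and 0 of 3 gamma chains passed in limma. Of 10 tested, 2 rose (20%, the same share as in all genes) and 1 fell (10%, against 10.2%). Summed TPM of the 5 alpha chains was 61.7, 65.3 and 61.3 in transfected and 52.2, 51.8 and 52.4 in untransfected libraries. That of the 3 beta chains was 43.6, 45.7 and 43.0 against 51.4, 53.0 and 51.6. The groups did not overlap in either sum, here or under the 2 scalings tried for sums, with alpha chains above and beta chains below.

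LAMA3 (ENSG00000053747, chromosome 18, 23689443 to 23956222), the alpha chain of the laminin that anchors epithelia, had the clearest change. It was at 28.7, 31.0 and 29.6 TPM in transfected and 20.2, 19.3 and 19.3 TPM in untransfected libraries. The groups were well apart, and the log2 fold was 0.58 with SE 0.063 (adjusted p = 0.000748), within 0.50 to 0.60 over the alternatives. LAMA3 made up 47.4% of alpha chain TPM in transfected and 37.6% in untransfected cells. Its window, on chr18:23872770-23873069 (plus strand), lies inside the annotated gene, at the start of a shorter transcript. It was the only one of the 13 windows of members called higher with the AP-1 letters. They are the longer pair of capital runs, which begin 125 and 69 bases before the start site, and the short run is a GC box.
LAMA3: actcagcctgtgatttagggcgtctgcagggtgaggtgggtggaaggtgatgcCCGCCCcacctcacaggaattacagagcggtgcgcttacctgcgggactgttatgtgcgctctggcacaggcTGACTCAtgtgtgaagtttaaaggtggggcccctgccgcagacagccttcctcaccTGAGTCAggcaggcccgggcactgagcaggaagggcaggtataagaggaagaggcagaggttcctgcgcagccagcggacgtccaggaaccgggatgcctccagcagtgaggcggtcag
LAMB3, the beta chain of that laminin, was at 1.52 ± 0.509 TPM with and 1.18 ± 0.297 TPM without transfection and was not called (adjusted p = 0.433).

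LAMA4, an alpha chain typical of vessel walls and mesenchyme, rose from 6.82 ± 1.00 to 9.21 ± 0.415 TPM (log2 fold 0.39, adjusted p = 0.0286). That call was lost without transfected replicate 2 (adjusted p = 0.0975) or 3 (0.0824), which left 1 laminin chain higher. LAMA1, the early embryonic alpha chain, was at 10.3 ± 0.136 TPM without and 10.1 ± 0.402 TPM with transfection, and LAMA5, the main alpha chain of mature kidney basement membrane, at 15.3 ± 1.65 TPM without and 13.5 ± 1.08 TPM with transfection. Neither passed, and LAMA2 was at 0.140 and 0.150 TPM.

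LAMB2, the beta chain of the glomerular filter, was at 33.1, 33.0 and 34.5 TPM in untransfected and 27.05, 27.93 and 27.04 TPM in transfected libraries, without overlap (log2 fold -0.29, SE 0.057, adjusted p = 0.00796). LAMB1, the more widespread beta chain, had 17.3 ± 1.56 TPM without and 15.2 ± 1.03 TPM with transfection and was not called on deposited TPM (adjusted p = 0.176); under the 3 other scalings it was called lower (0.0186 to 0.0433). LAMC1, the gamma chain shared by most laminins, was the most abundant chain at 139.2, 145.7 and 136.3 TPM in transfected and 137.4, 136.9 and 135.0 TPM in untransfected libraries. It did not differ beyond its spread (log2 fold 0.04, SE 0.051, adjusted p = 0.589), and it made up 92.3% and 93.1% of gamma chain TPM.

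**Figure D4:**
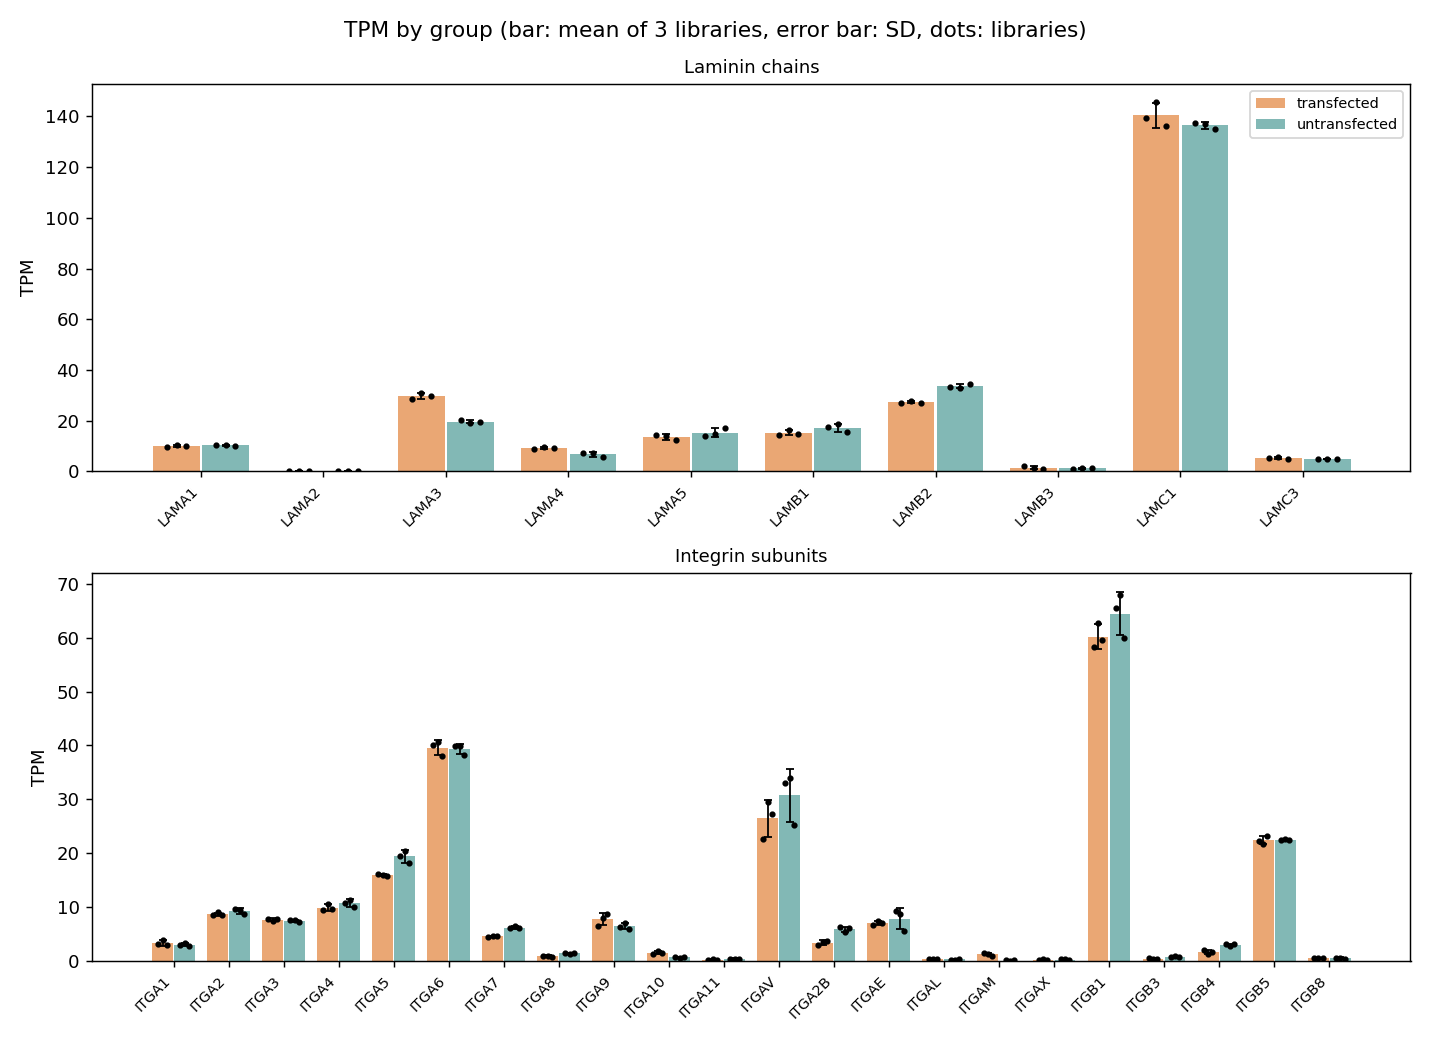
TPM of 10 laminin chains (top) and 22 integrin subunits (bottom) in transfected (orange) and untransfected (green) cells; bars are means of 3 libraries, error bars are SD and dots are libraries. LAMC1 and ITGB1 are the tallest bars of their panels, and LAMA3 and LAMB2 show opposite differences.

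Most integrin subunits were not called, and those that changed were of low abundance except ITGA5. Of 17 tested, 2 rose (11.8%) and 4 fell (23.5%), beside 20% and 10.2% of all genes. Among these 17 the lower count was 6 under each of the 3 other scalings and 9 with GC and length trends taken out. The share of all genes called lower was then 17.8% to 19.3% and 21.9%. With limma 0 were higher when any 1 transfected library was left out, because both risers then dropped below the filter. ITGB1, the beta subunit that pairs with most matrix-binding alpha subunits, made up 70.6% of beta subunit TPM in each group, at 58.2, 62.7 and 59.5 TPM in transfected and 65.6, 67.9 and 60.0 TPM in untransfected libraries. These values overlapped, and the log2 fold of -0.10 was not called (adjusted p = 0.294). ITGB1 was called lower under the 3 other scalings (0.0114 to 0.0163) and with GC and length trends taken out (0.00313).

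Its partners can be ordered by level. ITGA6, a laminin receptor subunit, led at 39.6 ± 1.39 TPM with and 39.3 ± 0.895 TPM without transfection (the order of values kept here). ITGAV, which binds RGD-bearing proteins such as vitronectin, followed at 26.4 ± 3.45 and 30.7 ± 4.84 TPM, and ITGA5, the fibronectin receptor subunit, at 15.9 ± 0.187 and 19.4 ± 1.14 TPM. Then came ITGA4 at 9.91 ± 0.592 and 10.7 ± 0.678 TPM and ITGA2, a collagen receptor subunit, at 8.71 ± 0.285 and 9.25 ± 0.544 TPM. ITGA9 and ITGA3, at 7.74 ± 1.09 and 7.69 ± 0.270 TPM in transfected cells, were within their spread of each other. ITGA1 was at 3.36 ± 0.488 and 3.05 ± 0.285 TPM, and ITGA11 at 0.247 ± 0.0473 and 0.423 ± 0.0551 TPM.

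Of these, ITGA5 fell (19.5, 20.5 and 18.2 TPM in untransfected and 16.1, 16.0 and 15.7 TPM in transfected libraries; log2 fold -0.27, adjusted p = 0.0212). The groups did not overlap, yet the call was lost with the replicate block (adjusted p = 0.0642). Leaving out transfected replicate 2 (0.0659) or 3 (0.0804), or untransfected replicate 1 (0.0706) or 2 (0.0717), ended it too. FN1, the gene of its ligand fibronectin, had 11.5 ± 0.794 TPM with and 11.5 ± 0.923 TPM without transfection (log2 fold 0.00, SE 0.087). ITGAV was called lower without untransfected replicate 3 (adjusted p = 0.0430), without both libraries that stood apart (0.0226) and with GC and length trends taken out (0.00797). Its beta partner ITGB5 was at 22.4 ± 0.774 and 22.5 ± 0.166 TPM, while ITGB3 and ITGB8 were under 1 TPM in all libraries. ITGB3 was at 0.53, 0.39 and 0.30 TPM in transfected and 0.67, 0.86 and 0.68 TPM in untransfected libraries, and without the filter it had a log2 fold of -0.31 (adjusted p = 0.0415).

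ITGA2B (chromosome 17, 44372180 to 44389505), the platelet fibrinogen receptor subunit that pairs with ITGB3, had the largest negative log2 fold of TPM + 1 among integrin subunits. It was at 6.24, 5.38 and 6.08 TPM in untransfected and 2.93, 3.55 and 3.79 TPM in transfected libraries. No values overlapped (log2 fold -0.64, SE 0.108, adjusted p = 0.00398). ITGB4 (chromosome 17, 75721328 to 75757818), the laminin receptor subunit of hemidesmosomes, was at 3.07, 2.75 and 3.11 against 1.97, 1.37 and 1.65 TPM (log2 fold -0.58, adjusted p = 0.00818). With a pseudocount of 0.1 ITGB4 had the larger fold, -0.82 against -0.77 for ITGA2B. ITGA7, a muscle laminin receptor subunit, was at 6.06, 6.48 and 6.07 against 4.5, 4.55 and 4.66 TPM (log2 fold -0.37, adjusted p = 0.0114), and its exons overlap BLOC1S1 and METTL7B on the other strand. ITGA8, a kidney development integrin subunit, was at 1.53, 1.27 and 1.39 TPM in untransfected and 0.98, 0.98 and 0.81 TPM in transfected libraries. It was tested only through the untransfected group and was not called (adjusted p = 0.0644), but passed without the filter on low values (0.0308) and under the 3 other scalings (0.0180 to 0.0416).

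ITGAM (chromosome 16, 31259967 to 31332892), a subunit of the complement receptor of myeloid cells, was at 1.48, 1.29 and 1.01 TPM in transfected and 0.09, 0 and 0.09 TPM in untransfected libraries. It was near 0 in every untransfected library and about 1 TPM or more in every transfected one, and the log2 fold was 1.09 with SE 0.131 (adjusted p = 0.00110). The log2 fold ranged from 0.31 with a pseudocount of 5 to 3.13 with 0.1, so its size depends on that choice. ITGAM is 1 of the 7 leukocyte markers, of which 2 were listed. That list's summed level was 1.72 to 2.76 TPM in transfected and 0.640 to 1.29 TPM in untransfected libraries, and the part of other cells in the result was not tested. ITGAL and ITGAX, which like ITGAM pair with the leukocyte beta subunit, were at 0.407 and 0.243 TPM in transfected and 0.307 and 0.270 TPM in untransfected cells. In bulk RNA, fewer cells of a type and less RNA per cell cannot be told apart.

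ITGA10, a cartilage collagen receptor subunit (chromosome 1, 145891208 to 145910189), was at 1.38, 1.89 and 1.42 TPM in transfected and 0.68, 0.55 and 0.77 TPM in untransfected libraries. The groups did not overlap (log2 fold 0.62, adjusted p = 0.00906), but like ITGAM it was tested only through the transfected group. Among the genes named after integrins, ITGB1BP2 (melusin, a muscle protein that binds the ITGB1 tail) passed at 2.97, 2.62 and 2.55 against 2.08, 1.92 and 1.22 TPM (log2 fold 0.45, adjusted p = 0.0457). This call was lost in 10 of 16 alternatives (adjusted p of 0.0507 to 0.148), among them those without transfected replicate 1 (0.118), 2 (0.107) or 3 (0.0934), without untransfected replicate 2 (0.0631) or 3 (0.0856) and without both libraries that stood apart (0.148). ITGB1BP1, which restrains integrin activation, was at 24.8 ± 1.56 TPM with and 24.2 ± 2.96 TPM without transfection, and ITGB3BP, a centromere protein, at 55.3 ± 5.48 TPM with and 46.9 ± 5.48 TPM without transfection. Neither passed.

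The other matrix genes included the most abundant member. Of 11 tested, 3 rose (27.3%) and 2 fell (18.2%), beside 20% and 10.2% of all genes. Their lower count was 4 under the 3 other scalings, where 17.8% to 19.3% of all genes were called lower. It was 1 with transfected replicate 3 or untransfected replicate 2 left out (6.87% and 6.78% of all genes). NID1, which links laminin to type IV collagen, was at 187.1, 182.5 and 170.4 TPM in transfected and 142.3, 142.4 and 152.6 TPM in untransfected libraries. The groups did not overlap (log2 fold 0.30, SE 0.059, adjusted p = 0.00740). The NID1 call was lost under median-ratio scaling (adjusted p = 0.0520), quantile normalization (0.123) and with mitochondrial and the most abundant genes dropped (0.0711), always with a positive fold. Its paralog NID2 fell from 14.9, 15.6 and 15.2 TPM to 12.34, 12.76 and 11.96 TPM (log2 fold -0.28, adjusted p = 0.0156). That call was lost without transfected replicate 3 (adjusted p = 0.0701), without untransfected replicate 2 (0.0515) and with the replicate block (0.0573), and NID2 exons overlap RTRAF on the other strand.

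TNC (chromosome 9, 115019578 to 115118257) encodes tenascin-C, a matrix protein of embryos and wounds that loosens cell attachment. It was at 32.9, 34.2 and 30.8 TPM in transfected and 21.3, 21.0 and 20.9 TPM in untransfected libraries. The SD of the untransfected values was 0.185 TPM and all transfected values were above them (log2 fold 0.61, SE 0.063, adjusted p = 0.000667). The TNC window at chr9:115118108-115118407 (minus strand) is shown as that of the most abundant member whose rise held in every alternative; its capitals are 1 GC box.
TNC: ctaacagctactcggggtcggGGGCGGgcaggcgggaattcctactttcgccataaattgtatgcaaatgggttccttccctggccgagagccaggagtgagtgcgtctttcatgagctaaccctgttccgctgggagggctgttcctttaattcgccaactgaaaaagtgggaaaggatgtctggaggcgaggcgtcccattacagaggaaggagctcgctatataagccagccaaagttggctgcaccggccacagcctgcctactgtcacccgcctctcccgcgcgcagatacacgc

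AGRN (chromosome 1, 1020123 to 1056118) encodes agrin, a heparan sulfate proteoglycan of basement membranes and of the neuromuscular junction. It was at 33.7, 35.0 and 40.0 TPM in untransfected and 25.8, 22.1 and 22.3 TPM in transfected libraries. All transfected values were lower (log2 fold -0.61, SE 0.090, adjusted p = 0.00231). HSPG2, the gene of the related proteoglycan perlecan, had 7.05 ± 0.532 TPM without and 6.12 ± 0.150 TPM with transfection and was not called (log2 fold -0.17, adjusted p = 0.157). FBN1, the main fibrillin of elastic microfibrils, rose from 6.93 ± 0.353 to 8.96 ± 0.325 TPM (log2 fold 0.33, adjusted p = 0.0163). Leaving out transfected replicate 2 (adjusted p = 0.0653) or 3 (0.0547) or untransfected replicate 2 (0.0508), or blocking on the replicate number (0.0540), ended the call. FBN2, the fetal fibrillin, had 39.8 ± 2.09 TPM without and 43.1 ± 2.34 TPM with transfection and was not called (adjusted p = 0.247).

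SPARC, a secreted collagen-binding protein, was at 111.1, 117.9 and 102.6 TPM in untransfected and 94.5, 100.3 and 102.2 TPM in transfected libraries. The groups did not overlap, but the log2 fold of -0.16 did not pass (adjusted p = 0.114). It passed as lower under the 3 other scalings (adjusted p of 0.00176 to 0.00389) and without untransfected replicate 3 (0.0277). LOX, which cross-links collagen and elastin, was at 5.51 ± 0.740 TPM without and 5.20 ± 0.718 TPM with transfection, and its relative LOXL2 at 8.12 ± 0.131 TPM without and 6.93 ± 0.224 TPM with transfection (adjusted p = 0.709 and 0.0773). The LOXL2 values did not overlap between groups. LOXL2 was called lower under the 3 other scalings (adjusted p of 0.0260 to 0.0454), without the variance trend (0.0472) and with GC and length trends taken out (0.0383). THBS1, which encodes the adhesion-modulating thrombospondin-1, was at 0.553 and 0.647 TPM and was not tested.

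**Figure D5:**
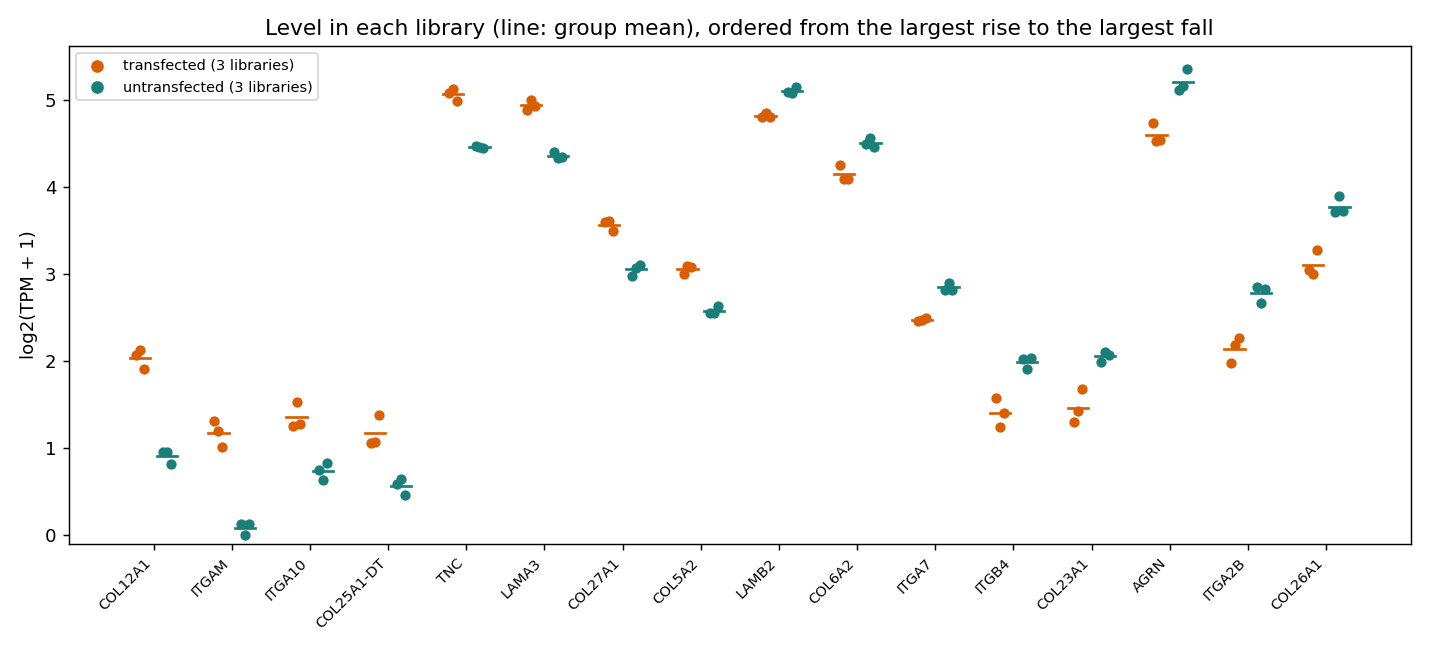
Log2(TPM + 1) of 16 members in each of 6 libraries, ordered by log2 fold from COL12A1 (highest) to COL26A1 (lowest); dots are libraries and lines are group means. These are the 8 higher and 8 lower genes whose call held in every alternative in which they were tested. The 2 groups of dots do not overlap for any of them, which this choice of genes makes nearly certain. COL12A1, ITGAM, ITGA10 and COL25A1-DT passed the filter only through the transfected group.

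Of the 28 members called, 16 were called in every alternative in which they were tested: COL12A1, ITGAM, ITGA10, COL25A1-DT, TNC, LAMA3, COL27A1 and COL5A2 higher, and COL26A1, ITGA2B, AGRN, COL23A1, ITGB4, ITGA7, COL6A2 and LAMB2 lower. The first 4 could not be tested when a transfected library was left out or with the filter of 5 TPM. COL23A1 and ITGB4 could not be tested with the filter of 5 TPM either. The share of all genes whose call held in this way was not computed, so the count of 16 has no background beside it.

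Genes that act on or beside the matrix were read from 5 further lists, whose counts stand beside 20% higher, 10.2% lower and 30.2% called in either direction over all genes, with a median of 0.05. Of 31 tested genes of collagen folding, secretion and cross-linking, 3 were higher and 5 lower (25.8% called), with a median log2 fold of 0.01. Collagen chaperone FKBP10, a prolyl isomerase, fell from 308.67, 312.05 and 312.00 to 247.91, 243.46 and 257.99 TPM (log2 fold -0.32, adjusted p = 0.00316). ADAMTS2, which trims the ends of procollagen, fell from 3.40 ± 0.337 to 1.80 ± 0.138 TPM (-0.65, adjusted p = 0.00339), and LOXL3, a lysyl oxidase, rose from 16.92, 15.93 and 18.08 to 22.95, 24.28 and 23.00 TPM (0.44, adjusted p = 0.00319).

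Matrix proteases and their inhibitors had 2 higher and 4 lower of 22 (27.3% called), with a median of -0.09. ADAMTS1, a protease that cuts proteoglycans, rose from 129 ± 7.23 to 175 ± 5.21 TPM (0.44, adjusted p = 0.00176). TIMP2, an inhibitor of matrix metalloproteases, fell from 25.0 ± 0.678 to 18.5 ± 0.263 TPM (-0.41, adjusted p = 0.00224), and the membrane metalloprotease gene MMP15 from 17.8 ± 0.623 to 13.3 ± 0.928 TPM (-0.40, adjusted p = 0.00640).

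Inside the cell, the integrin adhesion complex had 3 higher and 4 lower of 44 (15.9% called) and a median of -0.02. SLC3A2, which binds integrin beta tails and is also an amino acid transporter subunit, rose from 38.3 ± 2.42 to 74.8 ± 3.59 TPM (0.95, adjusted p = 0.000157). PTK2B, a kinase related to focal adhesion kinase, rose from 2.54 ± 0.164 to 4.17 ± 0.185 TPM (0.55, adjusted p = 0.00414), and ENAH, an actin regulator, from 95.8 ± 1.95 to 118 ± 6.22 TPM (0.30, adjusted p = 0.00657).

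Matrix receptors other than integrins had 2 higher and 5 lower of 21 (33.3% called), with a median of -0.04. The heparan sulfate proteoglycan SDC3 fell from 52.7 ± 1.98 to 36.6 ± 1.32 TPM (-0.51, adjusted p = 0.000989) and GPC1, of the glypican family, from 14.1 ± 0.323 to 10.4 ± 1.25 TPM (-0.40, adjusted p = 0.0128). DDR2, a collagen-binding receptor kinase, rose from 0.873 ± 0.119 to 1.71 ± 0.176 TPM (0.53, adjusted p = 0.0108). Further matrix glycoproteins had 1 higher and 6 lower of 34 (20.6% called), with a median of -0.09. VWA1, a basement membrane protein, fell from 10.9 ± 0.830 to 7.75 ± 0.589 TPM (-0.45, adjusted p = 0.00777) and EFEMP2, an elastic fibre protein, from 2.15 ± 0.136 to 1.24 ± 0.114 TPM (-0.49, adjusted p = 0.0104). COMP, a cartilage matrix protein, rose from 0.610 ± 0.201 to 1.18 ± 0.0624 TPM (0.44, adjusted p = 0.0334) and was tested only through the transfected group.

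Markers of other cells were mostly low, except COL1A1, LUM and LRP2, with means of 13.9, 11.5 and 8.17 TPM over 6 libraries. The fibroblast list, 2 of whose genes are members, summed to 23.1 to 26.2 TPM in transfected and 28.6 to 33.4 TPM in untransfected libraries, and 0 of 3 tested passed in limma. It was led by COL1A1 and by LUM, at 7.16, 11.51 and 10.95 against 13.31, 15.49 and 10.29 TPM. Their part in the collagen results was not tested, and the fibroblast gene DCN was at 0.140 and 0.237 TPM. The endothelial gene KDR was at 0.613 and 0.630 TPM, and kidney tubule markers summed to 8.96 to 10.1 and 8.91 to 10.3 TPM, mostly from LRP2.

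The remaining tested members were not called on the deposited TPM. The fibril-associated collagens COL21A1 and COL14A1 were at 2.18, 3.08 and 3.40 against 4.35, 5.04 and 3.59 TPM and at 4.37, 4.51 and 4.03 against 5.94, 5.15 and 4.99 TPM (adjusted p = 0.0545 and 0.0757). Both were called lower under each of the 3 other scalings (adjusted p of 0.0180 to 0.0353). COL3A1, COL7A1, COL9A2, COL9A3, COL13A1, COL24A1, LAMC3 and ITGAE had adjusted p values of 0.208 to 0.958.

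The 18 members that did not pass the filter on low values had at most 1.22 TPM in any library. Besides those named they were COL8A1, COL8A2, COL9A1, COL16A1, COL20A1 and COL22A1. Without the filter 16 members (18.2%) were called in each direction, beside 19.0% higher and 9.11% lower over all genes. Of the 18, COL5A3 and ITGB1-DT were called higher and ITGB3 lower.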

How the data were processed

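The deposited table gives TPM per gene and library, computed by the authors; per the submitters' processing notes STAR and GRCh38 were used, while the counting tool, strand setting and annotation release were not given in the sources used here. Per the labels, a stranded total RNA kit was used and reads were 75 nt pairs. The table has 18298 rows; 134 repeat an Ensembl ID with identical values and were dropped. The columns then add up to 999999.88 to 1000000.59. TPM keeps no depth, so no counting interval is given, and a rise in abundant transcripts lowers all others.

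Genes reaching 1 TPM in 3 or more of the 6 libraries were compared with limma 3.58.1 (R 4.3.3) on log2(TPM + 1), with group as the only term, a variance trend, and Benjamini-Hochberg adjustment over 16145 genes; the threshold was 0.05, and the script was tested on simulated data. Fold changes on this scale understate low genes. Coordinates, overlaps, length and GC content are from GENCODE 29 and promoters from RefSeq. Named genes were all members called, the 2 most abundant of each class, the type IV pairs, partners of ITGB1 and ITGAV, and up to 3 called genes of each further list; others were named after their values were seen. Members and lists were chosen with earlier results of these data known. Alternatives were other pseudocounts, filters and scalings, no variance trend, a replicate block, leaving out libraries and taking out GC and length trends. The fit without GC and length trends and that without both libraries that stood apart were added after the data were seen. The values of 1 member and 1 marker gene are not reported here.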

Additional observations from a re-analysis of the deposited data

How the results depend on the processing

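Among the 28 members called, 0 changed direction under any of the 17 alternatives. Over all genes 4880 were called, and 2785 to 4982 with single libraries left out. Of the members, 14 were higher, with 5 to 14 when single libraries were left out. The filter of 5 TPM tests 49 members and gave 7 higher and 10 lower. These were 14.3% and 20.4%, beside 22.3% and 11.6% of all genes. Of the members, 14 were lower, with 8 to 19 when single libraries were left out, 23 under median-ratio scaling and under quantile normalization, 24 with mitochondrial and the 20 most abundant genes dropped, and 24 with GC and length trends taken out. The cause of these shifts was not tested. With the replicate number as a block, 12 members were higher and 10 lower, beside 14.8% and 7.04% of all genes, and 3529 genes were called in all. Deviations of same-numbered libraries from their group means had correlations of -0.184, 0.107 and -0.163. With 3 libraries a group, these values cannot settle whether the numbers pair the samples. The ITGB1BP2 call was lost in 10 alternatives, that of COL2A1 in 7, and those of COL18A1 and ITGA5 in 5 each. COL4A4, COL11A2 and FBN1 lost theirs in 4 each, NID1 and NID2 in 3 each, and COL5A1, COL19A1 and LAMA4 in 2 each. Where these calls were lost, limma adjusted p values were 0.0503 to 0.210. TPM hold no depth, so precision at low values is unknown.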
